A study of Mus musculus with 12 samples.

Results

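The comparison concerns the 4 arrays whose titles name clp and the 4 arrays whose titles name only genotype and day, 8 of the 12 arrays of the series. They form 4 pairs of the same genotype and day, always given here in the order Eng+/- at 50 d, wt at 50 d, Eng+/- at 90 d and wt at 90 d, with 1 array per genotype, day and treatment. Eng+/- denotes a single functional copy of Eng, the gene of endoglin, a membrane protein that helps TGF-β and BMP receptors bind their ligands. The series addresses endoglin in the growth cycle of the hair follicle. What clp stands for, what the 2 days count, and the age, sex and number of the animals behind a sample are not given in the sources used here. The titles write the genotype as "end +/-", and "pool" stands in the title of either wt array with no named treatment. The 4 clp arrays lie on 1 slide and the 4 arrays with no named treatment on another, so treatment and slide cannot be told apart in any result below. The titles of the other 4 arrays of the series name tpa. These tpa arrays entered the limma fit but are not compared here.

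Each array compared the Cy5-labelled RNA of a sample with a Cy3-labelled pool of all conditions, and a level is given here as the log2 ratio of Cy5 to that pool after background correction and loess normalization. A difference is the log2 ratio of the clp array minus that of its partner. The labels call the material E14 embryonic stem cells. Of 17 stem cell genes with a probe 9, among them Nanog and Lin28a, were above background on all 8 arrays, Zfp42 and Fbxo15 on 0 and Pou5f1 on 1, while 10 of 13 hair shaft keratin genes were above background on all 8. The median Cy5 signal ranged from 166.5 to 573 over the 8 arrays, lowest on Eng+/- at 50 d and highest on Eng+/- at 90 d, both with no named treatment. In 3 pairs the clp array was the brighter one, and in the pair of Eng+/- at 90 d it was the dimmer one (263 against 573). The Cy3 channel of wt at 50 d with no named treatment and of clp wt at 90 d had a median correlation of 0.974 and 0.973 with the other arrays, against 0.991 to 0.994 elsewhere. Among sex-linked genes Xist was at -1.803, -1.061, -0.784 and -1.285 with no named treatment and -3.413, -1.159, -2.787 and -0.252 with clp. Eif2s3y differed by 0.403, 0.14, 2.311 and -0.176 by pair and Ddx3y by 1.234, 0.553, 1.089 and 0.871. Xist, Eif2s3y and Ddx3y were not called in the limma fit described below. Whether the sex of the animals differed between the arrays was not tested. Samples were bulk RNA, in which fewer cells of a type and less RNA per cell cannot be told apart.

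The hair follicle passes through growth (anagen), regression (catagen) and rest (telogen). In anagen, dividing matrix cells above the dermal papilla give rise to the inner root sheath and the hair shaft, which fill with keratins and keratin-associated proteins, and melanocytes pass pigment to the shaft. In telogen the hair shaft genes are silent. The skin around the follicle holds the epidermis, sebaceous glands, dermal fibroblasts and their matrix, fat, and resident immune cells such as macrophages, mast cells and T cells.

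A feature (a gene symbol, accession or probe) was called when its Benjamini-Hochberg adjusted p from the limma fit over 25084 features was below 0.05. Over both genotypes and days, 1948 features (7.77%) were called, of which 1070 (4.27%) rose and 878 (3.5%) fell with clp. An unadjusted p under 0.05 was reached by 6782 of the 25084 features, the background for such counts in the lists below. The rises were 54.9% of the calls, and 88.6% of the 1593 calls with median centring of each array in place of loess. At 50 d alone 1711 were called (6.82%; 922 higher, 3.68%, and 789 lower, 3.15%). At 90 d alone limma called 0 (0%), with 2915 features at an unadjusted p under 0.05 and a smallest adjusted p of 0.228. The calls rest on few arrays. Without the clp array of wt at 50 d 3 features were called (Ear2, Il1f6 and Sprr2a2), without that of wt at 90 d 17, and without that of Eng+/- at 50 d 401. Ear2 alone of the genes named here remained called without each of the 12 arrays, and every other call below except Il1f6 and Sprr2a2 was lost without the clp array of wt at 50 d. Without both arrays with a divergent Cy3 channel 8 features were called. Without the pair of Eng+/- at 90 d the number rose to 4624, and without its array with no named treatment to 4506.

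In single pairs, 1654 features (6.59%) were at least 2-fold higher with clp and 886 (3.53%) at least 2-fold lower in Eng+/- at 50 d. In wt at 50 d the counts were 1407 (5.61%) and 1888 (7.53%), in Eng+/- at 90 d 403 (1.61%) and 500 (1.99%), and in wt at 90 d 1857 (7.4%) and 690 (2.75%). The pair of Eng+/- at 90 d thus held the fewest such features in either direction, and it and wt at 50 d had more features below than above. With median centring neither statement held in full. There wt at 90 d had the fewest lower (203, against 2598 in Eng+/- at 90 d), and wt at 50 d had 11624 higher and 2119 lower. With the authors' processed signals Eng+/- at 90 d again had the fewest in either direction. Under that setting wt at 50 d had more features above than below. Over all features the pair differences of Eng+/- at 50 d correlated with those of wt at 90 d at 0.703 and of wt at 50 d at 0.629, while those of Eng+/- at 90 d correlated with the other 3 at 0.357, 0.192 and 0.12. These correlations are across 25084 features, which are not independent, and describe only how alike the pairs were. In all 4 pairs 117 features (0.466%) were at least 2-fold higher and 51 (0.203%) at least 2-fold lower. Of the 117, 80 had a gene symbol, and 32 of those were keratin or keratin-associated protein genes.

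**Figure D1:**
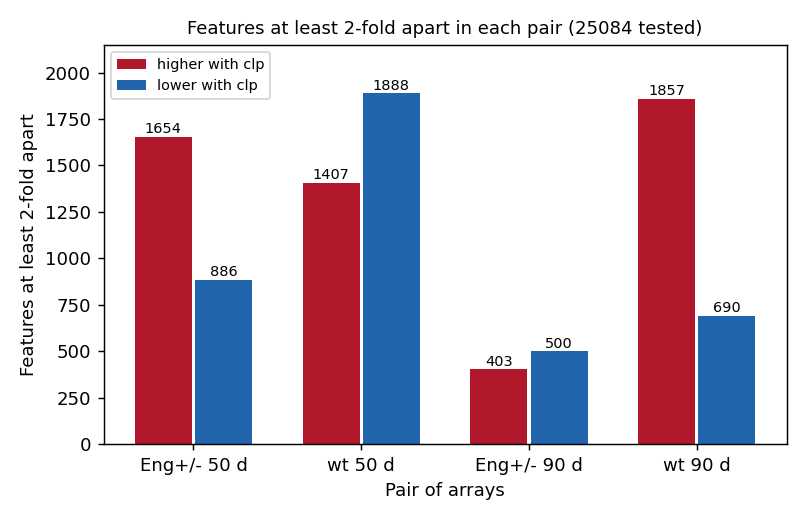
Number of features at least 2-fold higher (red) or lower (blue) with clp in each pair of arrays; 1 array a side, so no test. The pair of Eng+/- at 90 d has 403 and 500, the pair of wt at 50 d 1407 and 1888.

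Genes were grouped into 84 lists of functions and cell types, and the median difference of each list was set against that of all features, 0.01. In 12 lists the median was above 0 in all 4 pairs and in 30 below 0 in all 4. The lists of the hair fibre were highest, followed by melanocytes and by tight and gap junctions. The lists of the interferon response, macrophages and complement were lowest. As background for the counts below, 3379 of all features (13.5%) were higher in 4 of 4 pairs and 2679 (10.7%) lower. With median centring in place of loess the median of all features moved to 0.24, and of 47 lists described below 10 changed the sign of their median: basal and spinous epidermis, sebaceous gland, cholesterol synthesis, adipocytes, skeletal muscle, collagens, glycolysis, prostaglandins and leukotrienes, and EGF and IGF signalling. Relative to all features, only basal epidermis (0.12), spinous and granular epidermis (0.03), cholesterol synthesis (0.13) and glycolysis (0.09) of these turned above 0 with median centring. Sizes of medians are less stable than their signs: 27 of the 47 moved by over 1.5 times when single arrays were left out, 19 with the authors' processed signals and 23 with Cy5 alone, and 4, 3 and 2 lists changed sign.

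**Figure D2:**
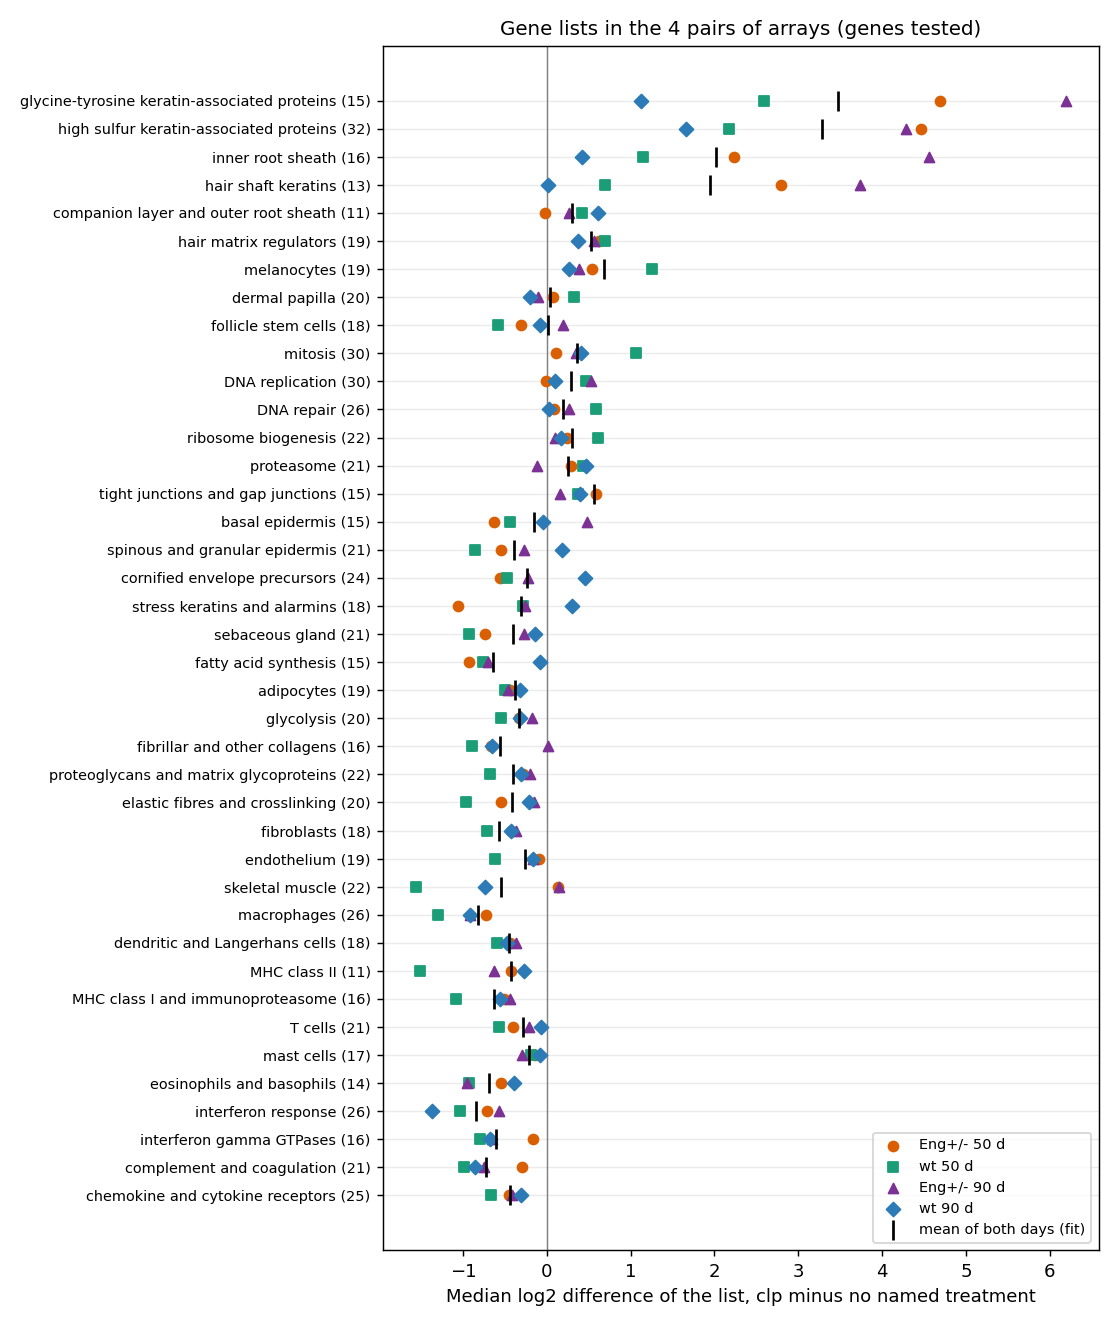
Median log2 difference (clp minus no named treatment) of 40 gene lists in each of the 4 pairs (coloured symbols) and in the fit over both days (black bars); the number of tested genes stands in parentheses. Hair fibre lists lie to the right in both Eng+/- pairs, up to 6.19, and leukocyte and interferon lists to the left of 0.

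Of the 84 lists, those of the hair fibre had the highest medians with clp. Of 32 high sulfur keratin-associated protein genes, whose products crosslink the keratin filaments of the shaft, 18 rose, 0 fell and 28 were higher in 4 of 4 pairs, with a median difference of 3.29. Of 15 glycine-tyrosine keratin-associated protein genes, 6 rose and 15 were higher in 4 of 4 pairs (median 3.48). Of 13 hair shaft keratins, which form those filaments, 2 rose (Krt82 and Krt40) and the median was 1.94. Of 16 inner root sheath genes limma called 0, with 8 at an unadjusted p under 0.05 and a median of 2.02, and 8 of them were higher in 4 of 4 pairs.

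Krtap12-1 stood at -4.23, -1.75, -5.72 and -1.86 with no named treatment and at 0.74, 1.49, -1.45 and 1.10 with clp. Each clp array was above every array with no named treatment, and Eng+/- at 90 d was the lowest of either set. The difference was 3.86 ± 0.61 (adjusted p = 0.0174, limma). The cuticle keratin Krt82 moved from -3.54, -2.28, -5.27 and -2.41 to -0.60, 0.04, -2.87 and -0.32, a difference of 2.44 ± 0.41 (adjusted p = 0.0183). Its pairs lay close together (2.94, 2.32, 2.40 and 2.10), although the groups overlap through the clp array of Eng+/- at 90 d. Krtap7-1 rose by 4.16 ± 0.63 (adjusted p = 0.0174), Krtap4-7 by 4.43 ± 0.72 (adjusted p = 0.0175) and Krtap24-1 by 1.47 ± 0.19 (adjusted p = 0.0147). The largest called rise of a named gene was that of Gm11554 (4.89 ± 0.86, adjusted p = 0.0208; 5.95, 3.84, 5.30 and 4.46 by pair). Keratin-associated protein genes form families of close copies, and whether a probe also takes up RNA of a neighbour in the family was not tested. Some spots were saturated with clp, on 1 array for Gm11554 and on 2 for Krtap4-7.

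These genes differed in size between the pairs along genotype. The median of the glycine-tyrosine list was 4.69 and 6.19 in the Eng+/- pairs and 2.59 and 1.12 in the wt pairs, that of the high sulfur list 4.47 and 4.29 against 2.17 and 1.66, and that of the shaft keratins 2.80 and 3.74 against 0.69 and 0.01. The levels that set this apart were those with no named treatment. The median level of the high sulfur list was -3.46 and -5.88 on the 2 Eng+/- arrays with no named treatment and -1.28 and -0.75 on the wt arrays. With clp it was 1.04, 1.21 and 1.08 on 3 arrays and -1.62 on Eng+/- at 90 d. The shaft keratin Krt81 was at -0.11 and -3.60 on the Eng+/- arrays and 2.15 and 2.27 on the wt arrays with no named treatment, and at 2.98, 1.64, 0.15 and 1.50 with clp. Its pair differences were 3.10 and 3.74 in Eng+/- and -0.51 and -0.76 in wt. Krt81 spots were saturated on 2 clp arrays and on 0 with no named treatment. Those of Krt33a and Krt86 were saturated on 4 clp arrays and on 2 with no named treatment, those of Krt40 and Krt82 on 0 of either. Saturated levels are lower bounds, and the part of saturation in the differences between genotypes was not tested. Each wt pair also holds an array with a divergent Cy3 channel and neither Eng+/- pair does, and the part of that channel was not tested either. In the limma test of the difference between genotypes, 0 features passed (0%; 957 at an unadjusted p under 0.05, lowest adjusted value 0.122, 2 residual degrees of freedom), but 14868 passed with median centring and 20 to 215 with single arrays left out. Of the 10 features with a symbol and the smallest p in that test, 8 were keratin or keratin-associated protein genes, among them Krt81, Krtap5-1 (3.55 and 4.32 against -0.08 and -0.34), Krtap14 and Krtap9-3. None was called. Without the array of Eng+/- at 90 d with no named treatment the medians of the shaft keratins, high sulfur, glycine-tyrosine and inner root sheath lists were 0.65, 2.05, 2.34 and 0.60, and without that of wt at 90 d they were 2.99, 4.31, 4.90 and 3.53.

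**Figure D3:**
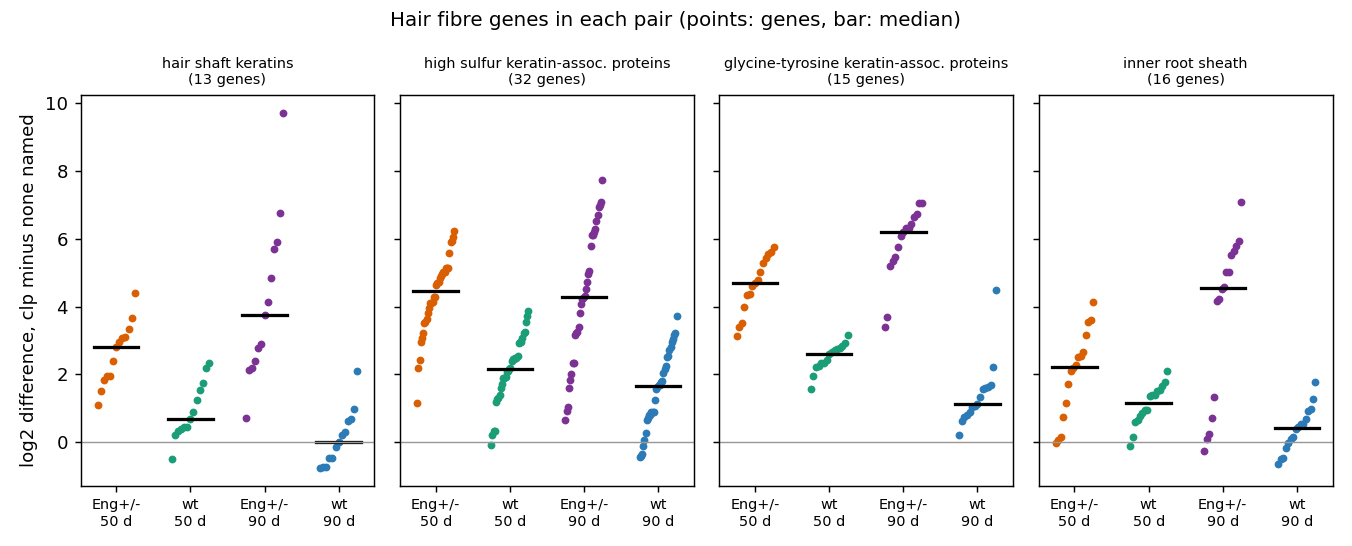
Log2 difference (clp minus no named treatment) of each tested gene of 4 hair fibre lists in the 4 pairs; points are genes in rank order, and black bars are list medians. In each list both Eng+/- medians lie above both wt medians.

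Promoter windows of 2 of these genes are shown for the TATA box, which was found in most high sulfur windows. RefSeq windows (GRCm38.p6) reach from 250 bases before to 50 bases after an annotated start, 300 bases in all, and were found for 28 of the 32 high sulfur genes and 14 of the 15 glycine-tyrosine genes. The motif TATAAA, searched on both strands as in all searches here, was in 25 of the 28 (89.3%) and in 10 of the 14 (71.4%), against 15.7% of the 27025 genes of the table. It was also in 6 of 9 shaft keratin windows (66.7%) and 9 of 14 of the inner root sheath (64.3%). The motif CTTTGAA, the core bound by LEF1 and TCF factors, was in 5 of 9 shaft keratin windows (55.6%) and 7 of 28 high sulfur windows (25%), against 5.93% of all. In the windows below, capitals mark TATAAA, which begins 27 bases before the start of Krtap24-1 (chr16:88612230-88612529, minus strand) and 31 bases before that of Krtap4-7 (chr11:99644040-99644339, minus strand). A match is a description of the letters and not of binding.
Krtap24-1: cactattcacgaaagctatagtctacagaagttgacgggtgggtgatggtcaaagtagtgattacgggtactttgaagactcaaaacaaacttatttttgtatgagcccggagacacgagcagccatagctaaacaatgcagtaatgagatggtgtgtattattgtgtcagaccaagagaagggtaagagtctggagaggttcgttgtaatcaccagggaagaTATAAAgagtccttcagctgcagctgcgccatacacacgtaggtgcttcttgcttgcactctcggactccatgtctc
Krtap4-7: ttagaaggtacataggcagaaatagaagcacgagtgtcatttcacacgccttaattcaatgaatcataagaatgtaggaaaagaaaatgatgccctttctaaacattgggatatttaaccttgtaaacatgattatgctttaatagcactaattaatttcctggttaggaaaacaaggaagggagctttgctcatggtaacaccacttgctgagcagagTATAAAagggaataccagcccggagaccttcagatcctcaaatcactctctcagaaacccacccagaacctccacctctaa

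Some regulators of the hair matrix and some pigment cell genes rose beside the fibre genes. Of 19 hair matrix regulators 4 rose (Lef1, Foxn1, Cux1 and Wnt5a), 0 fell and 11 were higher in 4 of 4 pairs, with medians of 0.62, 0.69, 0.57 and 0.38 by pair. Lef1, the transcription factor through which WNT signals act in the matrix, was at -0.83, -0.30, -1.58 and -0.48 with no named treatment and 0.73, 1.35, -0.47 and 0.83 with clp. The groups overlap only through Eng+/- at 90 d, whose own difference of 1.12 was near the others (1.56, 1.65 and 1.32), and the fit gave 1.41 ± 0.19 (adjusted p = 0.0147). Foxn1, the factor missing in nude mice, rose by 1.40 ± 0.24 (adjusted p = 0.0192). Cux1 rose by 1.71 ± 0.35 (adjusted p = 0.0266), though its 3 probes ranged from 0.28 to 1.72, and its pair of Eng+/- at 90 d was at 0.16 against 2.46, 1.78 and 2.45.

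Of 19 melanocyte genes 5 rose, 0 fell and 11 were higher in 4 of 4 pairs (median 0.68; 0.545, 1.255, 0.39 and 0.27 by pair). With no named treatment, leaving out the array of Eng+/- at 90 d gave a median of 0.46 and leaving out that of wt at 90 d 1.27. The median was 1.10 with processed signals, 1.15 with Cy5 alone and 1.40 with median centring. Pmel, which builds the fibrils of the melanosome, went from -1.19, -0.72, -2.66 and -0.51 to 0.85, 1.47, -0.51 and 0.92. The clp arrays were higher in every pair, and the lowest clp array equalled the highest array with no named treatment at 2 decimals. Its difference was 1.95 ± 0.31 (adjusted p = 0.0175), and Mlana, another melanosome protein, rose by 2.04 ± 0.30 (adjusted p = 0.0174). Slc24a5, an ion exchanger of the melanosome, rose by 1.45 ± 0.29 (adjusted p = 0.0267). Lists of the dermal papilla and follicle stem cells had medians near 0 (0.04 and 0.02) with calls in both directions. In the papilla list Wif1 and Hhip, secreted inhibitors of WNT and hedgehog signals, rose by 1.13 ± 0.23 and 1.07 ± 0.23 and Corin, a papilla protease, by 0.76 ± 0.18, while Fgf7, a growth factor for keratinocytes, fell by 0.90 (SE 0.16, adjusted p = 0.022). In the stem cell list Tbx1 rose by 1.28 ± 0.17 (adjusted p = 0.0156; 1.15, 1.50, 1.01 and 1.44) and Lgr5, a receptor for R-spondins on cycling follicle stem cells, by 0.76 ± 0.19 (adjusted p = 0.0438), and Postn, a matrix protein, fell by 0.98 (SE 0.17, adjusted p = 0.0202).

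A minority of cell division genes rose with clp. Of 30 mitosis genes 4 rose (Mki67, Plk1, Kif11 and Ccna2), 0 fell and 14 were higher in 4 of 4 pairs, with medians of 0.11, 1.07, 0.35 and 0.40 by pair. Of 30 DNA replication genes 4 rose (Mcm7, Tipin, Prim1 and Chaf1b) and 12 were higher in 4 of 4 pairs (median 0.29). Of 26 DNA repair genes 3 rose (Xrcc5, Atr and Xrcc1) and 11 were higher in 4 of 4 pairs (median 0.195). Mki67, a marker of dividing cells, was at 0.61, 0.43, -0.10 and 0.54 with no named treatment and 1.09, 2.13, 0.73 and 1.75 with clp. Every clp array lay above every array with no named treatment, and the difference was 1.06 ± 0.23 (adjusted p = 0.0323). Plk1, a kinase of mitotic entry, rose by 0.96 ± 0.21 (adjusted p = 0.0338; 0.62, 1.25, 0.49 and 1.45). Mcm7, a subunit of the replicative helicase, rose by 0.89 ± 0.17 (adjusted p = 0.0253). The list of ribosome biogenesis had a median of 0.30 with 1 of 22 genes called higher (Nop58, 0.81 ± 0.18) and 10 higher in 4 of 4 pairs, and that of the proteasome 0.26 with 2 of 21 (Psmb4 and Psma2). Among brakes of the cell cycle the calls were divided: Cdkn2c fell by 1.22 (SE 0.23, adjusted p = 0.0249) and Cdkn2b rose by 0.77 ± 0.16 (adjusted p = 0.0291), though the 2 Cdkn2b probes gave -0.01 and 0.77.

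Mitotic genes share a promoter element, the cell cycle homology region, with the letters TTTGAA. It was in 18 of 25 mitosis windows (72%), 3 of 24 DNA replication windows (12.5%) and 20.2% of all genes. The same letters lie within CTTTGAA, so the shaft keratin windows with CTTTGAA counted above are also among the 8 of 9 that hold TTTGAA (88.9%). The remaining windows of those 8 hold TTTGAA only. Capitals mark TTTGAA in the windows of Plk1 (chr7:122159185-122159484, plus strand) and Mki67 (chr7:135716330-135716629, minus strand, 2 matches), which are shown because both genes were called.
Plk1: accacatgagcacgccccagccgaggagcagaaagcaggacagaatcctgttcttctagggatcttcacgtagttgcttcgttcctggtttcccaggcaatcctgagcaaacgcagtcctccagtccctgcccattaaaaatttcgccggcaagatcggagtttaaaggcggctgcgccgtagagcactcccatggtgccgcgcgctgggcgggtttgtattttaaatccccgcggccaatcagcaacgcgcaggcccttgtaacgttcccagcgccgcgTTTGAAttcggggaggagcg
Mki67: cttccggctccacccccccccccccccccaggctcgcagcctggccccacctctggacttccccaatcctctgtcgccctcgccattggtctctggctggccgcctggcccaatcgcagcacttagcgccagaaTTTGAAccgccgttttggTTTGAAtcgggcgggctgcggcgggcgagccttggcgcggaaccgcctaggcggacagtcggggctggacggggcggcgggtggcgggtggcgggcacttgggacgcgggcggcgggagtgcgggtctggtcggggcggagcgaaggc

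More than 1 in 2 genes of the interferon response list fell with clp. Of 26 genes of the interferon response list 15 fell, 0 rose and 23 were lower in 4 of 4 pairs, with medians of -0.72, -1.04, -0.57 and -1.36 by pair and -0.845 in the fit. The list medians of the 8 arrays did not overlap: with no named treatment they were 0.09, -0.10, 0.16 and 0.73 and with clp -0.84, -1.22, -0.43 and -0.51. This was not particular to the interferon response. Of all lists, 22 were separated in this way with clp lower and 1 with clp higher, and 61 overlapped. Of 16 GTPases induced by interferon-γ, which attack the vacuoles of intracellular pathogens, 5 fell, 0 rose and 10 were lower in 4 of 4 pairs (median -0.60). Of 16 genes of MHC class I and the immunoproteasome, which present peptides to CD8+ T cells, 7 fell and 1 rose (H2-Q4, 1.03 ± 0.22), with a median of -0.63.

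Rtp4, a chaperone induced by interferon, was at -0.24, -0.43, 0.28 and 0.82 with no named treatment and -1.61, -2.01, -0.99 and -0.72 with clp. No clp array reached the lowest array with no named treatment, and the pairs lay within a narrow range (-1.37, -1.58, -1.27 and -1.54). The difference was -1.44 ± 0.19 (adjusted p = 0.0149). Gbp3, a guanylate-binding protein, moved from 0.09, 0.13, 0.69 and 0.83 to -1.13, -1.49, -0.28 and -0.71, and Igtp, an immunity-related GTPase, from -0.16, -0.03, 0.82 and 0.60 to -1.09, -1.38, -0.20 and -0.60. Both were lower on every clp array than on any of the other 4, by -1.34 ± 0.15 and -1.12 ± 0.14 (both adjusted p = 0.0147). Ifi47, another GTPase, fell by 1.96 (SE 0.21, adjusted p = 0.0134) and had one of the 10 smallest p at 90 d, where it was not called. Trim30a (-1.33 ± 0.21), Oas2 (-1.15 ± 0.17), the transcription factor Irf1 (-1.24 ± 0.18) and Oasl2 (-1.97 ± 0.33) fell as well, each lower in 4 of 4 pairs. Nlrc5, the activator of MHC class I genes, fell by 1.07 (SE 0.16, adjusted p = 0.0174; probes -1.07 and -0.42), and H2-M3 by 1.49 (SE 0.22, adjusted p = 0.0174). Leukocyte lists fell beside these genes, with values in the next paragraphs, and their part in the fall was not tested.

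The core of the interferon-stimulated response element is a repeat of GAAA with any 2 bases between the copies. All 9 of the 16 GTPase genes with a window held it (100%), as did 11 of 19 interferon response windows (57.9%), against 3.99% of all genes. In the macrophage list 1 of 17 windows held it (5.88%). Windows of 3 genes that were lower in 4 of 4 pairs are shown with the matches in capitals: Gbp3 (chr3:142559794-142560093, plus strand, 2 overlapping matches on the opposite strand), Igtp (chr11:58199306-58199605, plus strand, 34 bases before the start) and Trim30a (chr7:104446076-104446375, minus strand, on the opposite strand and just after the start).
Gbp3: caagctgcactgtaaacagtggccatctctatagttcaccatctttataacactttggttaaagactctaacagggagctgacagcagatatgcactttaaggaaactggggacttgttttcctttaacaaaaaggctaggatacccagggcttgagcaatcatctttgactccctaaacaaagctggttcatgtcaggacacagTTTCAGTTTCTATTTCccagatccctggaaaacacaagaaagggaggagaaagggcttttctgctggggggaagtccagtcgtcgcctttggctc
Igtp: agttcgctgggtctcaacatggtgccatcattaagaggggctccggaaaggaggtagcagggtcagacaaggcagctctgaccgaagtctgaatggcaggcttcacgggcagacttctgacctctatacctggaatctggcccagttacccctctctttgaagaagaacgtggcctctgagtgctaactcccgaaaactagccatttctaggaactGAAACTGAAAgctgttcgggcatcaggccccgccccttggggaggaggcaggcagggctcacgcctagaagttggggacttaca
Trim30a: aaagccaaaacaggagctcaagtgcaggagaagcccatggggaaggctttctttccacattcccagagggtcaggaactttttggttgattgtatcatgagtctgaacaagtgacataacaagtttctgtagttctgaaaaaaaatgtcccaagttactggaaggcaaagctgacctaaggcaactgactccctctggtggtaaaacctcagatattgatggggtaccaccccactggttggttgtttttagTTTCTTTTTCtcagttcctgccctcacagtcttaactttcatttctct

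Many markers of macrophages and eosinophils fell. Of 26 macrophage genes 11 fell, 1 rose (Gpnmb, 1.60 ± 0.26, which melanocytes also express) and 17 were lower in 4 of 4 pairs, with medians of -0.72, -1.29, -0.92 and -0.92. Adgre1, which encodes the macrophage marker F4/80, was at 0.30, 0.28, 0.53 and 0.77 with no named treatment and -1.43, -2.20, -1.07 and -1.002 with clp. The groups were more than 1 log2 unit apart, and the difference was -1.89 ± 0.20 (adjusted p = 0.0134; -1.13 by its other probe). Csf1r, the receptor that macrophages need to survive, fell by 1.91 (SE 0.23, adjusted p = 0.0147), but 1 of its 3 probes gave 0.15. The lysosomal protease Ctss fell by 2.03 (SE 0.26, adjusted p = 0.0147), and Cd209f, a lectin of macrophages and dendritic cells, by 2.09 (SE 0.24, adjusted p = 0.0147).

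Of 14 eosinophil and basophil genes 7 fell and 10 were lower in 4 of 4 pairs (median -0.69, or -1.83 with processed signals and -1.19 with Cy5 alone). Ear2, an eosinophil-associated ribonuclease, was at 0.07, 0.35, 0.69 and 0.57 with no named treatment and -2.66, -3.28, -1.55 and -1.65 with clp. It was lower by at least 2.22 in each pair, and the fit gave -2.71 ± 0.22 (adjusted p = 0.0101), with -2.92 to -2.50 when single arrays were left out. Its relatives Ear1, Ear10 and Rnase2a fell by 2.10 (SE 0.19), 2.03 (SE 0.21) and 1.98 (SE 0.30), but the family's genes are close copies and their probes may share signal, which was not tested. Macrophages can also express genes of this family. Ccr3, the eotaxin receptor of eosinophils, fell by 0.87 (SE 0.16, adjusted p = 0.024).

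In the other leukocyte lists fewer genes were called. In the T cell list 5 of 21 genes fell and 11 were lower in 4 of 4 pairs (median -0.28), with Cd3g at -1.18 ± 0.21 (adjusted p = 0.0202) and Cd3e at -0.93 ± 0.20 (adjusted p = 0.0325). In the dendritic and Langerhans cell list 5 of 18 fell (median -0.45), among them Cd86, a costimulator of T cells, at -0.89 ± 0.14 (adjusted p = 0.0174; -0.85, -1.05, -0.82 and -0.84). In the NK cell list 3 of 16 fell, in the mast cell list 3 of 17 and in the neutrophil and monocyte list 3 of 17. In the B cell list limma called 0 of 14, with 4 at an unadjusted p under 0.05. That is near the share of all features (6782 of 25084). Cma1 and Cpa3, proteases of mast cell granules, fell by 0.99 (SE 0.17) and 1.13 (SE 0.24), and Gzmc, a granzyme, by 1.37 (SE 0.15, adjusted p = 0.0134). Of 11 MHC class II genes 6 fell, among them H2-Ab1 and H2-Eb1 (-1.17 ± 0.22 and -1.34 ± 0.25), whose pair of Eng+/- at 90 d was at -0.18 and -0.15 against -1.27 to -2.13 in the other 3 pairs. Both had saturated spots on 2 of the 4 arrays with no named treatment, so their values there are lower bounds.

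Of 21 complement and coagulation genes 10 fell, 0 rose and 15 were lower in 4 of 4 pairs (medians -0.29, -0.99, -0.74 and -0.86). C1qa, part of the recognition unit of the classical pathway and made by macrophages, fell by 1.60 (SE 0.24, adjusted p = 0.0174) and C3, the central component, by 1.21 (SE 0.18, adjusted p = 0.0174). C3 was at 0.30, 0.35, 0.35 and 0.81 with no named treatment and -1.36, -0.98, -0.21 and -0.47 with clp, so that the clp arrays were all below 0 and the others all above it, with a saturated spot on 1 array with no named treatment. Of 25 chemokine and cytokine receptors 8 fell and 14 were lower in 4 of 4 pairs (median -0.44), among them Ccr2 of monocytes (-1.14 ± 0.19) and Il1rl1, the receptor of interleukin 33 (-1.37 ± 0.19, 1 of 3 probes at -0.13). Il33 itself fell by 1.29 (SE 0.25, adjusted p = 0.0257), at 0.01 in the pair of Eng+/- at 90 d and -1.98, -1.64 and -1.57 in the others. In the prostaglandin and leukotriene list the calls went both ways. Ptgds, the synthase of prostaglandin D2, was at -2.47, -1.82, -2.49 and -1.78 with no named treatment and -0.33, 0.42, -1.40 and -0.17 with clp. It was higher on every clp array than on any other of the 8, by 1.77 ± 0.16 (adjusted p = 0.0101). Alox5, the first enzyme of leukotriene synthesis and a gene of myeloid cells, fell by 1.29 (SE 0.20, adjusted p = 0.0174).

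**Figure D4:**
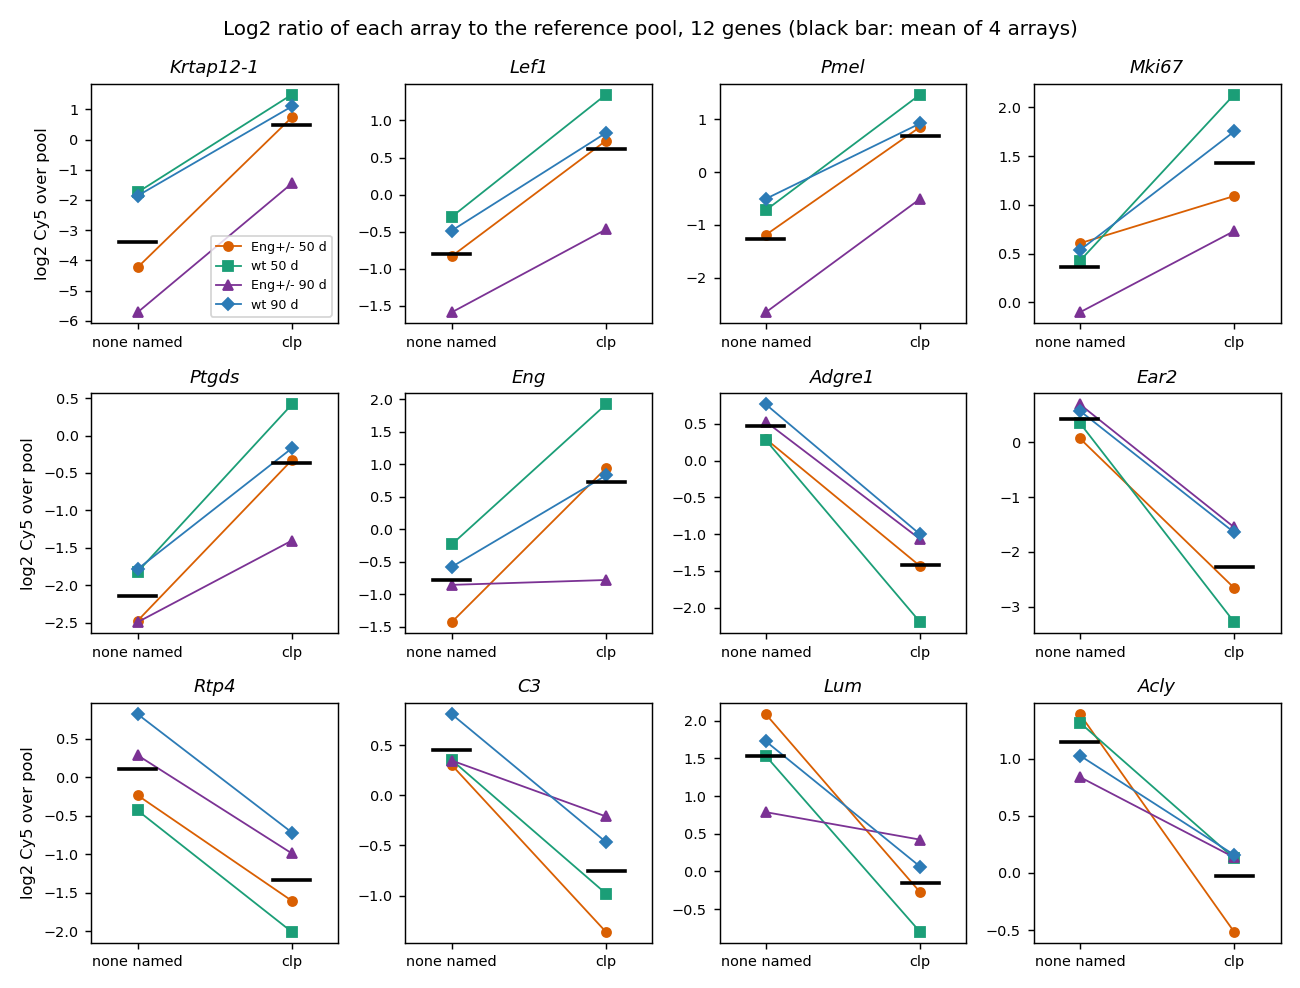
Log2 ratio of Cy5 to the pool of 12 genes on each of the 8 arrays, joined by pair (colours), with black bars for the mean of 4 arrays. Adgre1, Ear2, Rtp4 and C3 are lower with clp in all 4 pairs, and Eng is level (0.075) in the pair of Eng+/- at 90 d.

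Calls among genes of the dermis and its matrix were all falls in 4 lists, but not in that of matrix proteases and inhibitors. There Adamts2 was at -1.32 ± 0.29 (adjusted p = 0.0322) and Timp4 at 0.65 ± 0.17 (adjusted p = 0.0487). In the fibroblast list 6 of 18 genes fell and 9 were lower in 4 of 4 pairs (median -0.575). In the list of elastic fibres and crosslinking 7 of 20 fell and 10 were lower in 4 of 4 pairs, in that of proteoglycans and matrix glycoproteins 7 of 22 and 10, and in that of collagens 3 of 16 and 5. Lum, a proteoglycan that spaces collagen fibrils, was at 2.09, 1.53, 0.79 and 1.73 with no named treatment and -0.28, -0.80, 0.42 and 0.06 with clp. All clp arrays were below all others, but the pair of Eng+/- at 90 d differed by only -0.36 against -2.36, -2.34 and -1.66, and the fit gave -1.68 ± 0.25 (adjusted p = 0.0174). Fbn1, the main fibrillin of microfibrils, had its largest fall in that same pair (-0.66, -0.997, -1.54 and -0.79; -0.996 ± 0.18, adjusted p = 0.0208). Mfap4, a microfibril protein, fell by 1.29 (SE 0.17, adjusted p = 0.0147) and Col5a1, which nucleates collagen fibrils, by 1.08 (SE 0.17, adjusted p = 0.0174). The collagen list's median was -0.55 in the fit and 0.055 with median centring, and its pair of Eng+/- at 90 d was at 0.01. Of 19 adipocyte genes 4 fell (Cebpa, Adrb3, Plin1 and Acvr1c), with medians between -0.49 and -0.32 in the 4 pairs and of 0.17 with median centring. Of 22 skeletal muscle genes limma called 0 (9 at an unadjusted p under 0.05), and the medians split by genotype (0.13 and 0.14 in the Eng+/- pairs, -1.56 and -0.74 in the wt pairs). Whether muscle from under the skin was in the samples, and whether its amount differed between them, was not tested.

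Fewer than 1 in 2 genes of the surface epidermis and the sebaceous gland fell. Of 21 spinous and granular epidermis genes 4 fell, with medians of -0.55, -0.86, -0.27 and 0.18 by pair and 0.27 in the fit with median centring. Krt77, a keratin of the upper epidermis and the sweat duct, was at 1.67, 2.05, 0.93 and 0.62 with no named treatment and 0.04, -0.46, -0.23 and -0.47 with clp, lower on every clp array (-1.60 ± 0.19, adjusted p = 0.0147). Lor, the main protein of the cornified envelope, was saturated on all 8 arrays, so its call gives no fold. In the list of stress keratins and alarmins 1 of 18 genes fell, Il1f6, an interleukin 36 cytokine of keratinocytes, from 2.62, 1.57, 0.81 and 0.30 to -2.21, -0.28, -0.61 and -0.91 (-2.33 ± 0.40, adjusted p = 0.0202). Its fall in Eng+/- at 50 d (-4.82) was more than 2 log2 units larger than in any other pair. Of 21 sebaceous gland genes 8 fell and 1 rose, with medians of -0.73, -0.93, -0.27 and -0.14 and 0.06 with median centring. Cidea, a lipid droplet protein of sebocytes, fell by 1.42 (SE 0.24, adjusted p = 0.0192), but stood at 0.07 in Eng+/- at 90 d. Of 15 fatty acid synthesis genes 4 fell and 1 rose (median -0.64): Acly, which makes cytosolic acetyl-CoA, by 1.17 (SE 0.18; probes -1.17 and -0.09), Acss2 by 1.47 (SE 0.26), Elovl5 by 1.20 (SE 0.21) and Scd1, a desaturase of sebocytes, by 1.44 (SE 0.33). Of 20 glycolysis genes 4 fell (median -0.33, or 0.34 with median centring), among them the glucose transporter Slc2a1 (-1.23 ± 0.17, adjusted p = 0.0158; -1.91, -1.87, -0.33 and -0.80) and Pfkfb3 (-1.17 ± 0.15, adjusted p = 0.0147; its other probe -0.14). Of 22 cholesterol synthesis genes and 15 basal epidermis genes limma called 0, with 5 and 4 at an unadjusted p under 0.05. Neither is above the share of all features (6782 of 25084).

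Of 15 tight and gap junction genes 4 rose and 0 fell (medians 0.59, 0.37, 0.16 and 0.40). Cldn3 was at -0.69, -0.31, -0.17 and 0.04 with no named treatment and 0.93, 0.63, 0.40 and 0.83 with clp, without overlap (0.98 ± 0.17, adjusted p = 0.0202). Cldn1, the claudin that seals the epidermis, rose by 1.06 ± 0.23 (adjusted p = 0.0312) and was at -0.25 in the pair of Eng+/- at 90 d against 1.67, 1.47 and 1.34.

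The receptors and Smads of TGF-β and BMP signalling, the pathway of endoglin, had a median of 0.04 over 20 genes, of which 3 rose (Smad7, Eng and Bmpr1a). Eng was at -1.43, -0.24, -0.86 and -0.58 with no named treatment and 0.94, 1.92, -0.78 and 0.82 with clp. It was higher in 3 pairs by 1.41 to 2.37 and at 0.075 in the pair of Eng+/- at 90 d (1.50 ± 0.32, adjusted p = 0.0308). Smad7, the inhibitory Smad that TGF-β induces, rose by 1.34 ± 0.24 (adjusted p = 0.0212; 1.67, 1.84, 0.30 and 1.56), and Bmpr1a, the BMP receptor needed for hair differentiation, by 0.77 ± 0.18 (adjusted p = 0.0376). Among 25 ligands, antagonists and targets Gdf5 and Inhba rose and 1 gene fell (median 0.16). The 2 probes of Gdf5 disagreed (-0.33 and 1.32). Of 34 WNT pathway genes 5 rose and 0 fell (median 0.23), among them Fzd1, a WNT receptor (1.03 ± 0.24, adjusted p = 0.0379; 1.31, 1.43, 0.04 and 1.34). In the list of EGF and IGF signalling 3 genes rose and 3 fell of 25. Hbegf and Areg, ligands of the EGF receptor, rose by 0.74 ± 0.14 and 1.16 ± 0.23, and Igfbp5 and Igfbp6, which bind insulin-like growth factors, fell by 1.61 (SE 0.30) and 1.08 (SE 0.20). Endothelial genes other than Eng gave 1 further call among 19, Ramp2, which fell by 0.56 (SE 0.14).

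The pair of Eng+/- at 90 d stood apart from the other 3 within the called features. There 89.6% of the 1948 called features had the sign of the fit, at a median absolute difference of 0.43, against 97.4 to 100% and 0.87 to 1.11 in the other pairs. In 273 called features (175 higher and 98 lower) the difference was under 0.5 in size in Eng+/- at 90 d and at least 2-fold in each other pair. The same count was 15 for wt at 90 d, 3 for wt at 50 d and 1 for Eng+/- at 50 d. Gclc, the rate-limiting enzyme of glutathione synthesis, was at -2.28, -1.45, -0.88 and -1.75 with no named treatment and 0.17, 1.01, -0.91 and 0.82 with clp, that is 2.45, 2.46, -0.04 and 2.57 by pair (1.86 ± 0.35, adjusted p = 0.0242). Rps19, a ribosomal protein, was at 2.90, 2.14, -0.32 and 2.81 (1.88 ± 0.45, adjusted p = 0.0401), with saturated Rps19 spots on 3 of the 8 arrays. H1f5, a linker histone, was at 3.50, 3.20, -0.20 and 4.10 (2.65 ± 0.57, adjusted p = 0.0307). Sesn2, a stress-induced p53 target, rose by 1.30 ± 0.29 with 1.91, 1.65, -0.14 and 1.78. In the opposite direction Col7a1, the anchoring collagen of the epidermis, was at -1.76, -2.42, 0.46 and -1.33. For macrophage, eosinophil and hair fibre lists this pair was not the smallest: its medians were -0.92, -0.95 and 3.74 to 6.19. The relative brightness of the 2 arrays of this pair ran against that of the other pairs, as given above, and its part in these values was not tested. Xist and Eif2s3y also differed within this pair, as given above, and the part of sex was not tested either.

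**Figure D5:**
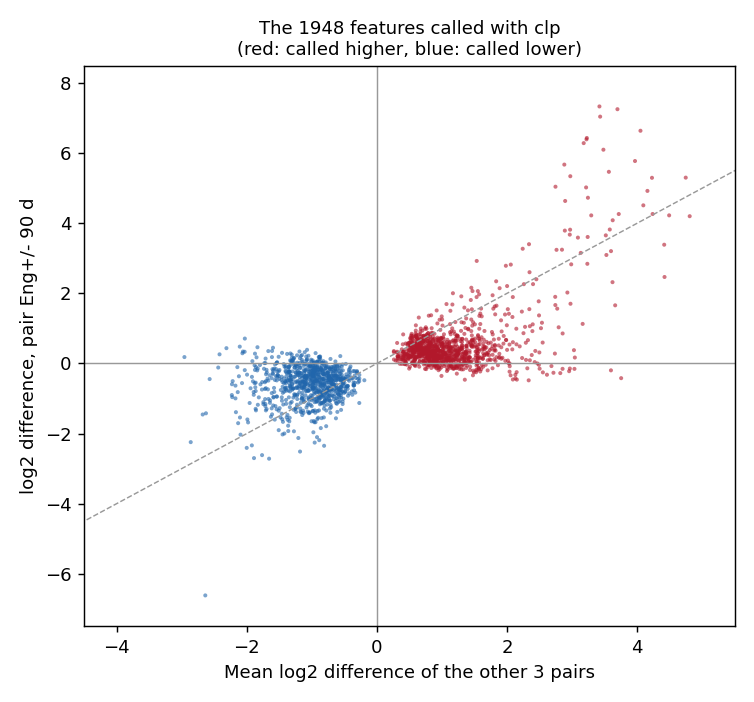
The 1948 called features: mean log2 difference of 3 pairs (x) against the difference of the pair of Eng+/- at 90 d (y); red features were called higher and blue lower, and the dashed line marks equal values. Most called features lie nearer to 0 on y than on x, and a group of red points lies above the dashed line.

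Between days, the difference with clp at 90 d against 50 d gave 0 called features in limma (0%; 3305 at an unadjusted p under 0.05, lowest adjusted value 0.273). Among the 10 with the smallest p, St8sia6, a sialyltransferase, was higher by 1.71 and 2.20 in the 50 d pairs and by 0.17 and 0.36 in the 90 d pairs. Krt42, a keratin, was lower by 1.45 and 2.56 at 50 d and differed by 0.14 and 0.16 at 90 d. These are values, and no difference between days was called. At 50 d limma called 5 of 21 spinous and granular and 8 of 21 sebaceous genes lower, against 0 of either at 90 d, but the test between the days passed for none of them.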

How the data were processed

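RNA of 12 samples was hybridised to 2-colour Agilent mouse arrays, each against a Cy3-labelled pool, on 3 slides. Per the file headers the authors read the scans with Agilent Feature Extraction 10.7.3.1 (the series text gives 10.1 and the submitters' processing notes 10.0) with probe positions of mm9. The deposited intensity of each spot, its median signal and background median in both channels, was used here. The deposited processed signals, which per the file headers were background-subtracted and dye-normalized by the authors' software, served as an alternative. The deposited value table holds, per the match to the scanner files, the log10 ratio of the authors' processed Cy5 to Cy3 signals, with a median of 0 in every column, and was used only for this comparison. All log2 values were computed here from the deposited signals.

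Median signals were background-corrected with normexp (offset 50) and normalized by loess within each array in limma 3.58.1 under R 4.3.3, with control spots at weight 0. Of 39429 probes, 975 were left out for outlier flags, and 30497 that were well above background in Cy5 on at least 2 arrays were tested. Each gene was represented by its brightest tested probe, which gave 25084 features. Log2 ratios were fitted on all 12 arrays with a term for genotype and 6 treatment-by-day conditions, which leaves 5 residual degrees of freedom. The arrays labelled tpa, on a slide of their own, thus contribute to the residual variance and the genotype term. Moderated tests with Benjamini-Hochberg adjustment were called at 0.05. Errors after ± are standard errors. With 1 array per genotype, day and treatment, the spread comes from arrays of different genotype. Nothing in the labels says whether these come from separate animals, so p-values measure only the spread between these samples, which may be technical. The number of arrays limits the precision.

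On simulated data with 25084 features, the clp comparison recovered 80 of 100 features changed by 1 on the log2 scale and 98 of 100 changed by 2, with 4 false calls among 182. The simulated noise was independent between features and arrays, with no slide effect and no divergent array. These rates therefore check the fit and do not describe the calls on the real arrays. The members and lists were chosen with earlier results of these data known. Most genes are named by rule: up to 4 called members of a list by smallest p, the 10 largest rises and falls, and the 10 smallest p of each day and interaction. The rule also takes members with the smallest p of lists without a call, the largest rises and falls of each pair, and Eng. Some genes, such as those given for saturation, sex or stem cells, were picked outside this rule. Alternatives were other normalizations, filters and probe rules, the pair as a block, and arrays left out. Some members of the lists are counted but not reported by name here.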

Additional observations from a re-analysis of the deposited data

Results flagged for a closer look

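Over the 4 pair differences, 1 pair lay far from the other 3 for the following, a test that chance meets in about 1 of 20 sets of values. How many lists and genes were screened is not given here, so those flagged may be no more than chance gives. In wt at 50 d the endothelial list had a median of -0.616, Cd86 a difference of -1.05 and Ctss one of -2.859, each lower than in the other pairs. In Eng+/- at 90 d Fzd1 stood at 0.038, Gclc at -0.038, Sesn2 at -0.137 and Xrcc5 at 0.181, each below the other pairs.

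In other cases both pairs of a genotype or day moved one way and the other pairs the opposite way. Between genotypes, the mean of the Eng+/- pairs minus that of the wt pairs was 1.289 for the skeletal muscle median, 4.054 for Krt81 and 4.139 for Krtap5-1. Between days, the mean of the 90 d pairs minus that of the 50 d pairs was -0.353 for the dermal papilla median and 2.155 for Krt42. For the list medians the difference was not tested, and for the genes the limma interaction did not pass after Benjamini-Hochberg adjustment.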

How the results depend on the processing

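The count of features called over both days (1948) came to 4086 with the authors' processed signals, 6126 with Cy5 alone, 210 in the 8 arrays with the pair as a block, 4624 without the pair of Eng+/- at 90 d, 8 without wt at 50 d with no named treatment and clp wt at 90 d, and between 3 and 4506 with single arrays left out. At 50 d (1711) it came to 3216 with Cy5 alone, 99 with the pair as a block, 4659 and 9 without those arrays, and 1 to 4276 with single arrays left out. At 90 d (0) it came to 154 with median centring, 329 with Cy5 alone, 476 and 2 without those arrays, and 0 to 369 with single arrays left out. The difference between days (0) gave 2 and 4 without those arrays and 0 to 26 with single arrays left out. The difference between genotypes (0) gave 14868 with median centring and 20 to 215 with single arrays left out, in fits with fewer residual degrees of freedom than the 2 of all arrays. Features at least 2-fold higher and lower, in the order of the pairs, numbered 3163 and 2490, 3476 and 3320, 1147 and 1919, and 3050 and 2446 with the processed signals. With median centring wt at 50 d had 11624 higher, Eng+/- at 90 d 2469 higher and 2598 lower, and wt at 90 d 8435 higher and 203 lower. With Cy5 alone Eng+/- at 50 d had 1842 lower, wt at 50 d 2238 higher, Eng+/- at 90 d 940 higher and 1000 lower, and wt at 90 d 1873 lower. Ramp2 turned to 0.0425 with median centring and Cd3e to 0.41 with Cy5 alone. With the pair as a block 81 of the 116 named genes lost the call. With median centring 66 did, with Cy5 alone 14 and with the authors' processed signals 3. The other filters and probe rules left every count within 1.5 times of its value. The cause of these changes was not tested. The paired fit above blocks on genotype and day, since the labels give no replicate numbers. Each condition of a genotype and day is 1 array, treatment is slide, and saturated or dim spots compress a difference.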
